A study of Homo sapiens with 4 samples.

Results

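The mRNAs described here encode 36 proteins that tether transport vesicles to their target membrane or sort cargo at endosomes, and the question was where on these mRNAs, and on which of them, RNA bound by IGF2BP3 was recovered. The genes were taken as a list of complex subunits (COG, exocyst, HOPS and CORVET, GARP and EARP, retromer and TRAPP). The rule used no measured value, but the list was drawn up with earlier results of these data known and leaves out some subunits of the same complexes, which are counted separately below. A peak was counted for a gene when its summit, the position of highest signal, lay in an exon of that gene in GENCODE release 44. Of 44622 peaks in replicate 1, 275 had such a summit, and of 42723 peaks in replicate 2, 274 did, a mean of 274.5 ± 0.707 (SD, n = 2). Over all protein-coding genes the counts were 41647 and 40105.

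The series had 4 samples of OE-19, an established line of adenocarcinoma of the esophagogastric junction: 2 RNA immunoprecipitations (RIP) with an antibody to IGF2BP3 and 2 inputs, which are RNA set aside before the pull-down. All came from this one line in one state, with UV fixation named in the labels and with no treatment, knockdown or second genotype. A peak list was analysed for each RIP replicate, and input values were not analysed here. The study describes the replicates as biological, while the labels do not say whether they were separate cultures. A test between conditions does not exist in this design, and the values below are descriptions of 2 lists. Of the epithelial markers looked up, CDH1 had 4 and 8 exonic summits, while EPCAM, KRT8, KRT18, KRT19 and ERBB2 had 0 in both lists. Of markers of other cell types, VIM, PTPRC and PECAM1 had 0, and COL1A1 had 0 and 5. A peak is a local excess over the caller's background and not a measure of expression, so these counts do not show which genes the cells transcribed.

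IGF2BP3 belongs to a family of proteins that bind mRNA through RRM and KH domains and are known for stabilising their targets. GGAC, the core of the consensus around methylated adenosines, and CA-rich elements are both linked to the family. Tethers catch a vesicle before SNARE proteins fuse it with its target. COG works on vesicles returning within the Golgi and the exocyst on vesicles arriving at the plasma membrane. CORVET acts at early endosomes and HOPS at late endosomes and lysosomes. GARP receives endosomal carriers at the trans-Golgi network and EARP works at recycling endosomes. Retromer sorts cargo out of endosomes, and the TRAPP complexes activate Rab GTPases along the secretory pathway.

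To show what the recovered RNA looked like, the coding sequence around the replicate 1 summit is given for 6 members. They had the strongest CDS peaks that overlapped between the lists, by mean fold enrichment. Peaks with a replicate 1 summit in the stop codon window were not counted as CDS. Fold and window are defined below. The coding peak in VPS8 exon 47 was left out for this reason. Its mean fold was 4.89, above the 4.62 of the TRAPPC8 peak shown. Each stretch is mRNA sense, from the GRCh38 reference, 50 nt on either side of the summit and cut at the ends of the exon. Capitals mark every match to the motifs searched, which were GGAC and its extension TGGAC, the CA-rich CACA and CACTC, and the A-rich or T-rich AACA and CATT.
EXOC6B: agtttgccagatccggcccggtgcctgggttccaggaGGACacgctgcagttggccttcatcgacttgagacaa
COG1: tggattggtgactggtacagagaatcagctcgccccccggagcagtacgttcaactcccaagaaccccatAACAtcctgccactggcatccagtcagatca
VPS52: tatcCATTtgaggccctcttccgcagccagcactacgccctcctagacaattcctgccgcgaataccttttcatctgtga
VPS39: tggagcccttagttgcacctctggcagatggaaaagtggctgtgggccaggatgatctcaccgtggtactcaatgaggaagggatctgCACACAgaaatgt
VPS54: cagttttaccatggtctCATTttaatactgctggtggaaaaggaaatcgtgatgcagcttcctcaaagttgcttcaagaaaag
TRAPPC8: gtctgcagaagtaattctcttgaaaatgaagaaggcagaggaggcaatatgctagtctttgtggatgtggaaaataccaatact
The EXOC6B stretch is the whole of exon 20, on the minus strand at chr2:72334947-72335020, and the COG1 stretch lies in exon 12, on the plus strand at chr17:73206716-73206816. The VPS52 stretch lies in exon 12 at chr6:33266633-33266712, VPS39 in exon 8 at chr15:42184551-42184651, VPS54 in exon 6 at chr2:63965835-63965917 and TRAPPC8 in exon 21 at chr18:31855660-31855743, these 4 on the minus strand. Of the 6 stretches, the EXOC6B one holds GGAC, the VPS39 one holds CACA at 2 overlapping positions, and the TRAPPC8 one holds none of the letters searched. Their GC content ranged from 39.3% in TRAPPC8 to 59.5% in EXOC6B.

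An exonic summit in both lists was found for 26 of 36 members (72.2%), against 28.0% of all 20046 protein-coding genes and 34.7% of the 11739 whose coding sequence was within the members' range of 984 to 4308 nt. Both backgrounds include genes that OE-19 may not express, since no expression values were used, and the list was not chosen blind to these data. Peaks that overlapped between the lists were present on 20 members (55.6%), against 23.0% of protein-coding genes. A peak with a q of at most 0.05, the caller's p corrected for multiple testing, was present in both lists on 9 members (25%), against 4.93% of protein-coding genes. These 9 were COG1, COG5, EXOC6B, VPS8, VPS39, VPS52, VPS53, VPS54 and TRAPPC8. No exonic summit was found in either list for COG4, EXOC8, VPS16, VPS18 and VPS51. EXOC3 and TRAPPC12 had summits in replicate 1 alone, and COG8, VPS26A and VPS33A in replicate 2 alone.

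Counts were compared between mRNAs as summits on the canonical mRNA per kb of coding sequence. This leaves out the few summits in exons of other transcripts, which were 1 each on EXOC1, EXOC3, VPS39 and VPS53 in replicate 1. The median over the 36 members was 2.02 per kb in replicate 1 and 2.74 in replicate 2, with a mean of 2.38 ± 0.506 (SD, n = 2), and the median over all protein-coding genes was 0 in both. Among genes with a peak in both lists, the median of the replicate means was 3.67 per kb for the 26 members and 2.81 for 5619 protein-coding genes. The density was higher in replicate 1 for 15 members, higher in replicate 2 for 13 and equal for 3 above 0. Across the 36 members, the densities of the lists went together with Pearson's r = 0.900 and Spearman's rho = 0.884, which describes genes and not independent replicates.

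**Figure D1:**
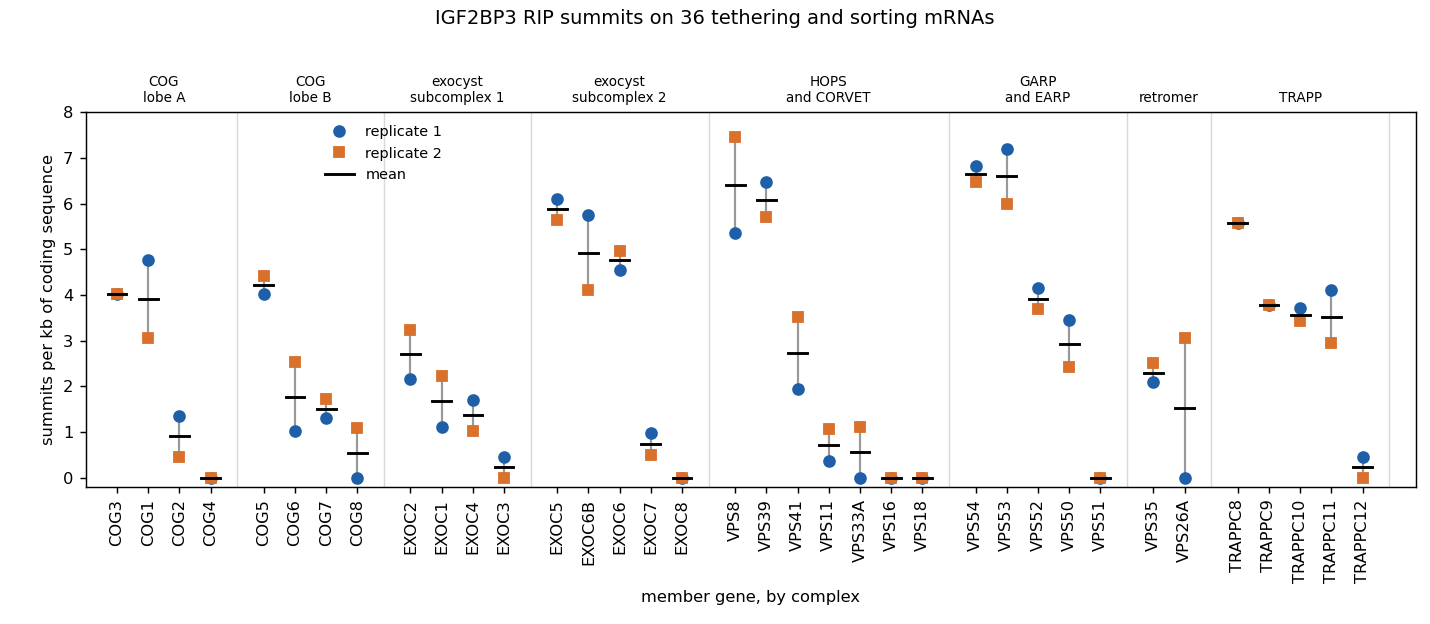
Summits per kb of coding sequence (vertical axis) for each of the 36 members, grouped by complex, with replicate 1 as circles, replicate 2 as squares and the mean as a bar. VPS54, VPS53, VPS8 and VPS39 have means above 6 per kb, while 5 members lie at 0 in both lists.

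Summed over its 5 genes, the GARP and EARP group had the highest density of the 8 groups by the mean of the lists. It stood at 4.44 and 3.81 summits per kb, a mean of 4.13 ± 0.440, beside 3.67 ± 0.247 for TRAPP (SD, n = 2). By the median gene, exocyst subcomplex 2 was higher, at 4.76 per kb against 3.91. VPS54, the subunit that defines GARP, had 20 and 19 summits, or 6.82 and 6.48 per kb. Summits fell in 22 of its 23 exons in at least 1 list and in 17 in both, and its peaks covered 71.8% and 71.3% of the coding sequence. VPS53, a subunit that both complexes share, had 19 and 15 summits, of which 18 and 15 on the canonical mRNA gave 7.20 and 6.002 per kb. Among them were 5 and 2 in its long 3′ UTR. The shared subunit VPS52 had 9 and 8, and VPS50, which takes the place of VPS54 in EARP, had 10 and 7. VPS51, the remaining shared subunit, had 0 in both lists. By the mean of the lists VPS54 was the densest member at 6.65 ± 0.241 per kb, but VPS53 at 6.60 ± 0.849 and VPS8 of CORVET at 6.41 ± 1.48 (SD, n = 2) were not separated from it beyond their spread. VPS53 was densest in replicate 1 and VPS8 in replicate 2. The measure counts UTR summits over the length of the coding sequence alone, so the 3′ UTR summits of VPS53 add to its density.

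The HOPS and CORVET mRNAs ranged widely. Among the subunits specific to one complex, VPS8 of CORVET had 23 and 32 summits, VPS39 of HOPS 18 and 15, and VPS41 of HOPS 5 and 9. Of the core subunits that both complexes share, there were 1 and 3 on VPS11, 0 and 2 on VPS33A, and 0 in both lists on VPS16 and VPS18. On the per kb scale VPS8 stood at 5.37 and 7.46 and VPS39 at 6.47 and 5.71. VPS41 stood at 1.95 and 3.51, with 1 overlapping peak in each list, and VPS11 stood at 0.354 and 1.06. Of 48 exons of VPS8, 34 held a summit in at least 1 list and 19 in both. The GC content of the coding sequence was 41.9% for VPS8, 41.9% for VPS41 and 48.9% for VPS39, and 47.9% to 61.3% for the 4 core subunits. Exon number went with the counts only in part: VPS8, VPS39 and VPS41 have 25 to 48 exons, and the core subunits have 5 to 24. VPS16, with 24 exons, had 0 summits in both lists, while VPS39, with 25, had 18 and 15. VPS41, with 29 exons, had fewer than VPS39, at 5 and 9. The part of GC content and exon number in the counts was not tested.

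The TRAPP mRNAs stood at 3.85 and 3.50 summits per kb over 5 genes. TRAPPC8, a subunit of TRAPP III, had 24 summits in each list, of which 21 in each overlapped a peak of the other, and its peaks covered 69.2% and 68.6% of the coding sequence. TRAPPC11 of the same complex had 14 and 10, and TRAPPC12 had 1 and 0. TRAPPC9 and TRAPPC10, the subunits particular to TRAPP II, had 13 in each list and 14 and 13. The coding sequence of TRAPPC9 has 55.8% GC, and its 3.77 summits per kb in each list were the most among the 7 members at 55% or above.

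In the exocyst, subcomplex 2 had 3.57 and 3.12 summits per kb over 5 genes and subcomplex 1 had 1.41 and 1.69 over 4. EXOC5, the human Sec10 subunit, had 13 and 12 summits, or 6.11 and 5.64 per kb. EXOC7, a subunit that binds plasma membrane lipid, had 2 and 1, of which 1 in each list also lay in an exon of ZACN. EXOC8, whose mRNA has 1 exon, had 0 in both lists. In subcomplex 1, EXOC2 had 6 and 9, EXOC1 had 4 and 6, EXOC4 had 5 and 3, and EXOC3 had 2 and 0. The 5 summits of EXOC4 in replicate 1 and the 3 in replicate 2 lay in different exons, with none in common.

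The paralogs EXOC6 and EXOC6B, which provide alternative copies of 1 exocyst subunit, were both rich in summits. EXOC6 had 11 and 12 and EXOC6B 14 and 10, or 4.55 and 4.97 against 5.75 and 4.11 per kb. Their coding sequences were identical at 71.2% of 2385 aligned bases, with a longest identical run of 21 bases, and 18 of the 20 inner exons had the same length in both. A summit was present in both lists in 9 exons of EXOC6 and in 7 of EXOC6B, and 5 of these exons had the same number in both genes (exons 11, 13, 17, 18 and 21). Exons 2 to 5 held no summit in either gene or list. The paralogs differed in strength. The highest fold was 3.64 and 3.79 on EXOC6 and 6.83 and 6.14 on EXOC6B, and no peak of EXOC6 had a q of at most 0.05, whereas 4 and 7 peaks of EXOC6B did.

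Both lobes of COG included mRNAs with many summits and mRNAs with few. In lobe A, COG3 had 10 summits in each list and COG1, loss of which disturbs glycosylation, had 14 and 9, covering 76.6% and 53.7% of its coding sequence. COG2 had 3 and 1, and COG4 had 0 in both lists. In lobe B, COG5 had 10 and 11, of which 9 in each list overlapped. COG6 had 2 and 5, COG7 had 3 and 4, and COG8 had 0 and 2. In retromer, VPS35, the scaffold of the cargo-binding core, had 5 and 6, and VPS26A had 0 and 3.

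The height of the peaks is given as fold enrichment, the ratio of RIP signal to the local background that the authors' caller set at the summit. Member peaks ran from 1.90 to 6.83 in replicate 1 and from 1.82 to 6.38 in replicate 2. Their medians were 3.02 and 3.06, beside 2.92 and 2.90 over all peaks of the lists. The values came in steps: 62.2% and 70.1% of member peaks had exactly the same deposited fold as another member peak of their list, as did EXOC6B exon 20 and VPS54 exon 6 in replicate 1, both at 5.89. For the 26 members with a peak in both lists, the median of the highest fold was 4.19 and 3.97, or 4.08 ± 0.162 (SD, n = 2), beside 3.58 ± 0.0959 over the 5619 protein-coding genes with a peak in both. The highest of many peaks tends to exceed the highest of few, and these members had the higher median density. Over the 26, density and highest fold went together with rho = 0.693. The part of peak number in the difference was not tested. The highest values belonged to TRAPPC8 (6.61 and 6.38), EXOC6B (6.83 and 6.14) and COG1 (6.11 and 5.91). VPS52 followed at 6.30 and 5.39, VPS54 at 5.89 and 5.30, VPS39 at 5.81 and 5.32, EXOC4 at 6.06 and 3.96, and COG5 at 5.03 and 4.93. Neighbours in this order differed by less than the spread between their replicates in several places, so the order within the 8 is loose. The highest fold of EXOC4 was much lower in replicate 2, where its lowest q was 0.710 against 9.78e-05 in replicate 1.

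**Figure D2:**
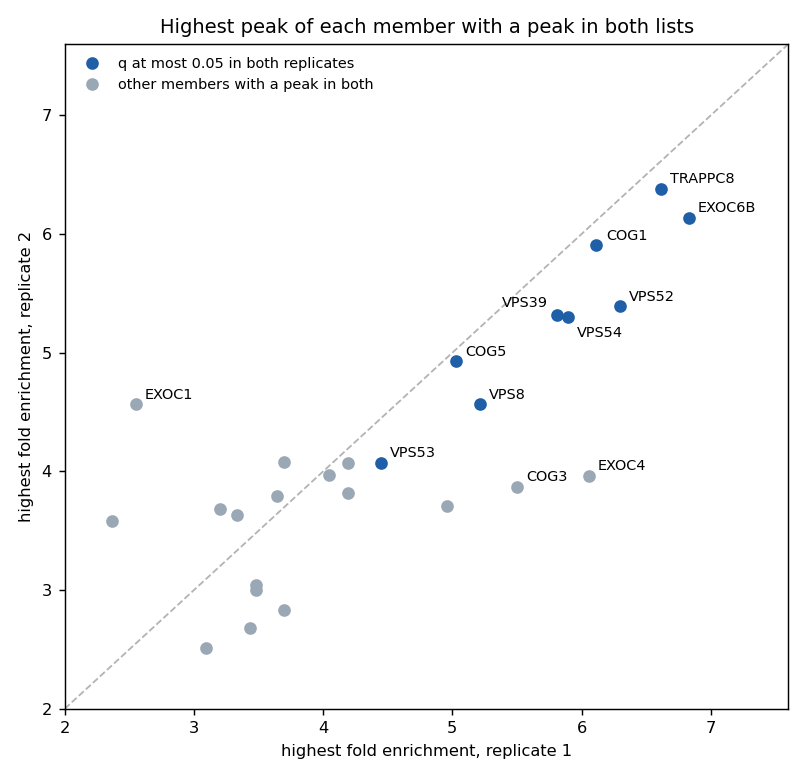
Highest fold enrichment of each of the 26 members with a peak in both lists, replicate 1 on the horizontal and replicate 2 on the vertical axis, with the dashed line marking equality and the members with a q of at most 0.05 in both lists in dark blue. TRAPPC8, EXOC6B and COG1 have the 3 highest means of the lists, with VPS52 above COG1 in replicate 1, and EXOC4 lies at 6.06 in replicate 1 and 3.96 in replicate 2.

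A high point on a gene was not always the same site in both lists. The TRAPPC8 maxima lay in different exons, at 3303 nt from the start codon in replicate 1 (exon 21, q = 0.000258) and at 2634 nt in replicate 2 (exon 19, q = 0.000474). At exon 21, the site of the sequence shown above, the overlapping replicate 2 peak had a fold of 2.63 and a q of 1. The replicate 1 maximum of EXOC6B, in exon 19 with a fold of 6.83 and q = 2.25e-08, had no overlapping peak in replicate 2. The replicate 1 maximum of VPS52, in exon 13, and the VPS53 peaks with a q of at most 0.05 had none either. Across 165 overlapping pairs on members, the folds of the lists went together only weakly, with r = 0.176 and rho = 0.0735. The highest fold per gene went together more closely, with r = 0.781 and rho = 0.773 over 26 members.

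Overlapping pairs with a q of at most 0.05 in both lists numbered 7, on the mRNAs of EXOC6B, COG1, VPS52, VPS8 and VPS54. EXOC6B had 3 of them, in exon 20 with folds of 5.89 and 6.14, in exon 21 with 5.54 and 5.51, and in exon 11 with 4.57 and 5.34. The exon 20 peaks had q = 0.000174 and 1.48e-06 with summits 12 nt apart. COG1 exon 12 had 6.11 and 5.91 with both summits on the same base, 2678 nt from the start codon, and q = 0.00032 and 0.00241. VPS52 exon 12 had 5.10 and 5.39 with summits 6 nt apart. VPS8 exon 47, near the stop codon, had 5.21 and 4.56 with summits 12 nt apart, and VPS54 exon 4 had 4.32 and 4.31. The VPS39 and VPS54 sites printed above reached a q of at most 0.05 in replicate 1 alone, with folds of 5.81 and 4.35 on VPS39 and of 5.89 and 4.18 on VPS54.

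**Figure D3:**
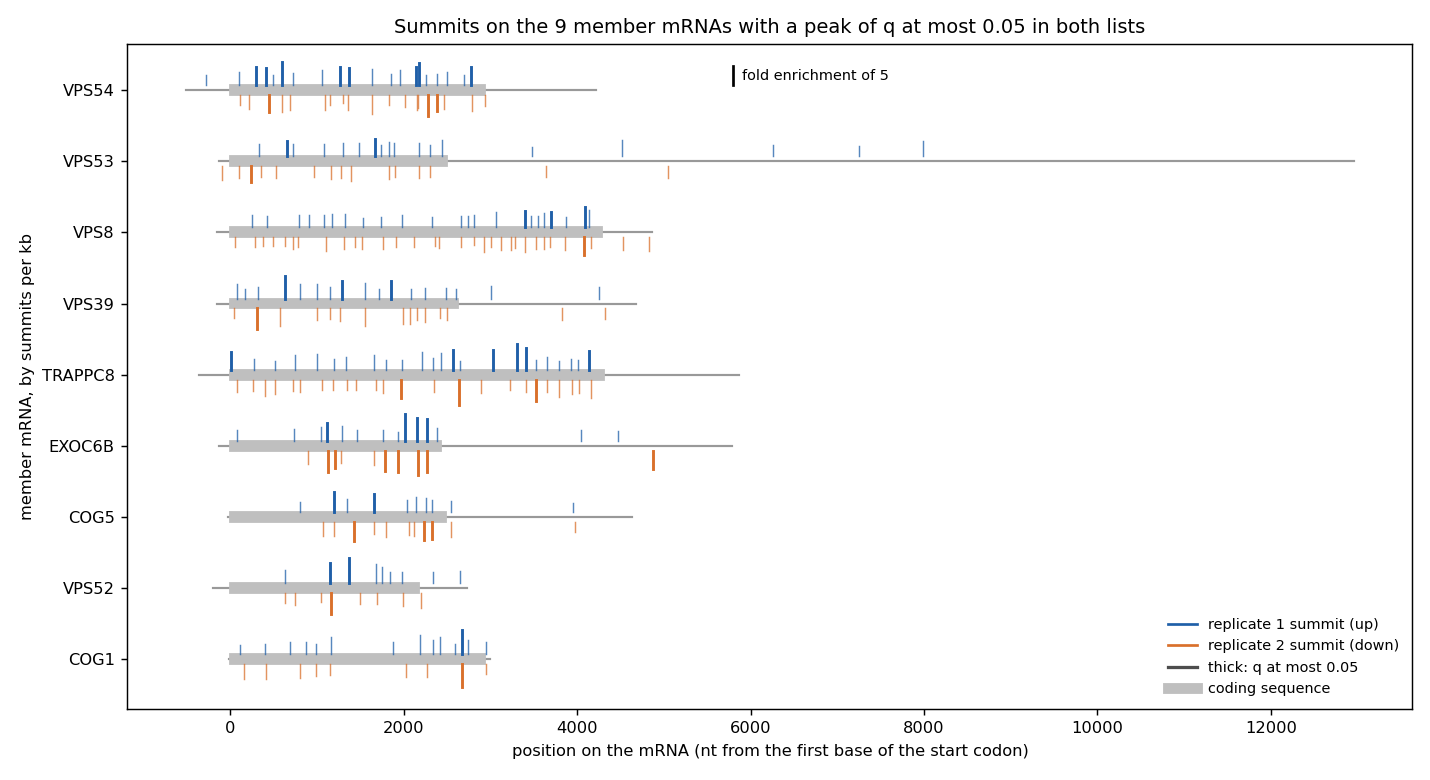
Summits on the mRNAs of the 9 members with a q of at most 0.05 in both lists, with position in nt from the start codon on the horizontal axis, replicate 1 above and replicate 2 below each mRNA, line height proportional to fold enrichment and thick lines for a q of at most 0.05. Summits run along the grey coding sequence, and the 3′ UTR of VPS53 and EXOC6B holds a few.

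Of member peaks, 59.3% in replicate 1 and 59.9% in replicate 2 overlapped a peak of the other list, or 59.6% ± 0.411 (SD, n = 2), beside 62.9% ± 2.67 over all peaks on exons of protein-coding genes. The summits of the 165 pairs lay a median of 17 nt apart, and 133 pairs (80.6%) were at most 50 nt apart. Of the pairs, 136 were in the CDS, 21 within 200 nt of the stop codon, 8 in the 3′ UTR and 0 in the 5′ UTR. Member peaks with a q of at most 0.05 numbered 38 and 23, or 11.1% ± 3.84 (SD, n = 2), beside 9.02% ± 1.70 over protein-coding genes. A q of 1 was carried by 55.3% and 57.7% of member peaks.

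Peaks on members lay mainly in the coding sequence. The canonical mRNA was split into 5′ UTR, CDS, a window reaching 200 nt to each side of the stop codon, and 3′ UTR. The CDS outside the window held 83.4% and 86.1% of member summits, or 84.8% ± 1.94 (SD, n = 2), while it made up 50.3% of the members' mRNA length. Over all protein-coding mRNAs the CDS share was 71.4% ± 1.15, of 41.6% of the length. The stop codon window held 8.26% ± 1.88 of member summits (SD, n = 2) and made up 8.27% of the length. The 3′ UTR held 6.24% ± 0.0486 of member summits (SD, n = 2) and made up 38.7% of the length. Its share over all protein-coding mRNAs was 16.3% ± 0.894, of 42.4% of the length. The difference from all mRNAs in the CDS and 3′ UTR shares was larger than the spread between replicates, whereas that in the stop codon window was smaller. This spread is between 2 lists and does not measure how the shares vary between sets of genes. Each peak counts once, whatever its width. The replicate 2 peak in the last exon of EXOC6B was 3027 bp wide, in an exon of 3478 nt, and gave 1 summit. Shares of summits are therefore not shares of the sequence covered by peaks. They are also not scaled to length, and the CDS makes up more of the members' mRNA length, 50.3% against 41.6%. The higher CDS share of summits is therefore not a stronger preference for the CDS by itself. For the 3′ UTR, the shares of summits differed more, 6.24% against 16.3%, than the shares of length, 38.7% against 42.4%. What lies behind the lower 3′ UTR share was not tested.

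**Figure D4:**
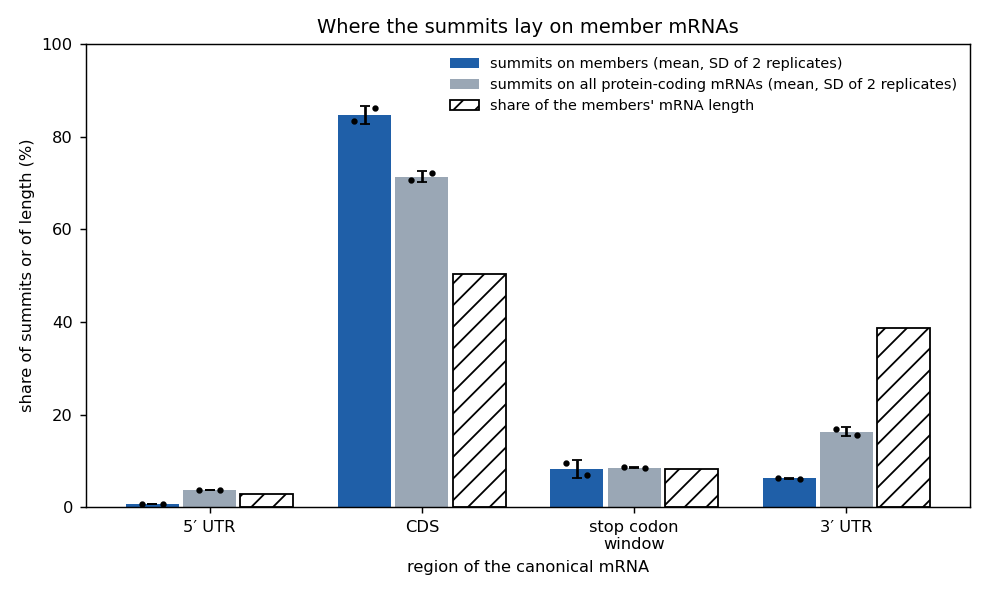
Share of summits in each region of the canonical mRNA in percent, for members (blue) and for all protein-coding mRNAs (grey) as the mean with SD of 2 replicates and each replicate as a dot, beside the share of the members' mRNA length (hatched). The CDS holds 84.8% of member summits and 50.3% of the length, and the 3′ UTR holds 6.24% and 38.7%. Each peak counts once, whatever its width.

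Within the coding sequence the summits were spread along its length, with fewer at the start. The opening 20% of its length held 11.4% of the 246 summits between start and stop codon in replicate 1 and 13.7% of 248 in replicate 2, beside 15.8% and 16.2% over all protein-coding genes. The closing 20% held 25.6% and 22.2%, beside 21.7% and 21.2%. Summits were distributed exon by exon. Of the 704 exons of the 36 canonical mRNAs, 257 held a summit in replicate 1, 264 in replicate 2 and 164 in both. The median peak with a CDS summit in an inner exon covered 69.8% of that exon in replicate 1 and 69.5% in replicate 2, and a median of 99.8% and 100% of the peak lay inside it. Peaks that covered at least 50% of the exon and lay at least 50% within it made up 76.2% and 74.7% on members and 69.1% and 69.6% over all protein-coding genes. A peak on these mRNAs therefore often had about the extent of an exon, with a median width of 95 and 91.5 bp on members.

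Members with more exons had more peaks. Of the 5 members with at most 10 exons, 0 had a summit in both lists, and these were COG8, EXOC8, VPS18, VPS26A and VPS51. Of the 4 with 11 to 15 exons, COG1 did. A summit in both lists was present for 10 of 11 members with 16 to 20 exons, 9 of 10 with 21 to 25 and 6 of 6 with more, the exceptions being COG4 and VPS16. For protein-coding genes with a coding sequence of the members' range of lengths, the share with a summit in both lists was 24.9%, 37.3%, 48.6%, 54.1% and 51.4% in the same order of classes. Over the 36 members, exon number and mean count of summits went together with r = 0.737 and rho = 0.698. The mean count also went with the length of the coding sequence, at r = 0.692 and rho = 0.572. Exon number and summits per kb of coding sequence went together with r = 0.634 and rho = 0.639. The part of length in the relation to exon number was not tested.

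The members without peaks were also richer in GC. The coding sequences of the 26 members with a summit in both lists had a median GC content of 43.5%, those of the other 10 had 56.0%, and those of the 5 without any peak 57.3%. All 10 members between 40% and 45% GC had a summit in both lists, as did 4 of 5 below 40%, 4 of 5 between 45% and 50%, 6 of 9 between 50% and 55%, and 2 of 7 above. The 2 were EXOC7 and TRAPPC9. Over protein-coding genes the share fell less steeply, from 36.8% below 40% GC to 19.7% at 55% or more. The density of summits and the GC content of the coding sequence went together with r = -0.560 and rho = -0.609 over 36 members, beside a rho of -0.199 over all protein-coding genes. Over the 5619 protein-coding genes with a peak in both lists, a set without the genes that lack peaks, rho was -0.0711. GC content and exon number were themselves related, with rho = -0.440 over the members, so their shares in the pattern cannot be told apart here. COG1, VPS52, VPS53, TRAPPC9 and TRAPPC10 combined a GC content of over 50% with more than 3 summits per kb.

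**Figure D5:**
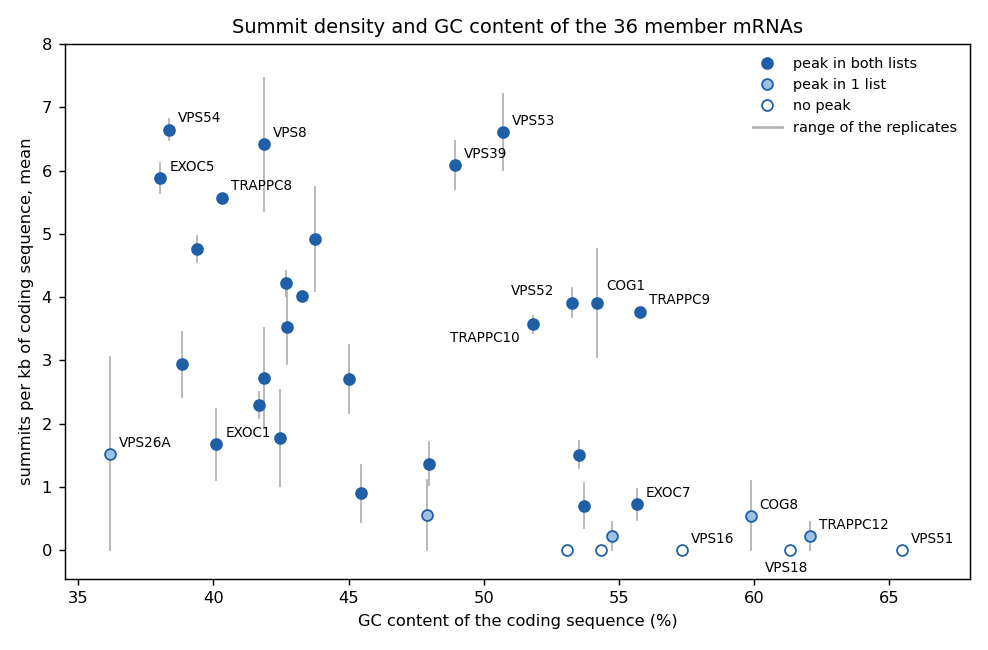
Mean summits per kb of coding sequence (vertical axis) against the GC content of the coding sequence in percent (horizontal axis) for the 36 members, with vertical lines spanning the replicates. The 5 members at 0 lie at 53.1% GC or more, and VPS54, EXOC5, VPS8 and TRAPPC8 lie below 42%.

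The RNA under the summits was described by the letters in windows of mRNA centred on each summit, with 50 nt to either side. Member windows had a median GC content of 44.6% and 42.6%, beside 48.5% and 47.5% over all protein-coding mRNAs. Windows in the CDS differed from the coding sequence of their own gene by a median of -0.692 and -0.693 percentage points, and 55.3% and 57.2% of these windows were lower in GC than their own coding sequence. GGAC was present in 25.9% ± 0.577 of member windows (SD, n = 2), beside 28.5% of all windows that can be placed along the 36 mRNAs and 32.0% ± 0.069 of summit windows on all mRNAs. TGGAC, which contains GGAC, was present in 11.6% ± 0.35, beside 12.1% and 12.9%. Along the mRNAs of the 26 members with a peak in both lists alone, GGAC was present in 27.03% of windows and TGGAC in 11.5%.

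Other letters were compared in the same way. AACA was present in 50.9% and 47.4% of member windows, or 49.2% ± 2.46 (SD, n = 2), beside 39.1% along the 36 mRNAs, 41.6% along the mRNAs of the 26 members with a peak in both lists and 41.5% ± 0.477 at all summits. CATT was present in 40.7% ± 0.836, beside 36.9% along the 36 mRNAs, 39.0% along those of the 26 members and 33.3% at all summits. CACA was present in 37.6% ± 0.486, beside 33.1%, 34.48% and 38.3% in the same order. CACTC was present in 8.45% ± 1.10, beside 8.83%, 8.97% and 8.45%. Searches covered the mRNA strand, and windows of neighbouring summits can overlap. Windows along whole mRNAs include UTRs in proportion to their length, so the 226 and 236 windows centred in the CDS were also set beside every window of the same coding sequences, weighted by the number of summits on each gene. AACA was then present at 52.2% and 47.9% of CDS summits against 47.7% in each list along the same coding sequences, a difference smaller than the spread between replicates. CATT stood at 42.4% ± 0.538 against 39.5%, CACA at 35.5% ± 0.475 against 36.3%, GGAC at 25.1% ± 0.769 against 28.1% and TGGAC at 11.5% ± 1.27 against 13.4% (SD, n = 2). CACTC stood at 7.58% ± 0.538 against 6.92%. CATT, AACA and CACTC stood above the frequency along the same coding sequences in both lists, and GGAC, TGGAC and CACA stood below it in both. Some of these gaps were very small. In replicate 2, AACA stood at 47.9% against 47.7%, CACTC at 7.20% against 6.99% and CACA at 35.2% against 35.8%. For CATT the values were 42.0% against 39.4% in replicate 1 and 42.8% against 39.7% in replicate 2. For GGAC they were 25.7% against 28.3% and 24.6% against 27.9%. The differences of all 6 motifs are at most a few percentage points and were not tested. Many member peaks overlapped between the lists, so the same direction in both is not independent evidence.

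Other genes of the same routes, 83 in number, were counted as lists. A summit in both lists was present for 40 of them (48.2%), beside 28.0% of all protein-coding genes. It was 34.7% for genes whose coding sequence was within the members' range of lengths. Most Commander, ESCRT and small TRAPP coding sequences are shorter than that range, which starts at 984 nt. The coiled-coil tethers of endosomes and Golgi, which reach out for vesicles at a distance, had 11 of 14, and sorting nexins with the other retromer subunits 6 of 8. The actin-regulating WASH complex had 4 of 6, counting the near-identical copies WASHC2A and WASHC2C, between which reads cannot be told apart with certainty. The NRZ tether of the endoplasmic reticulum had 2 of 3 and the other CORVET and CHEVI subunits 2 of 3. ESCRT had 9 of 25 (36%) and Commander 5 of 14 (35.7%), both near the 34.7% above. Of the other TRAPP subunits, which are mostly the small proteins of the shared core together with TRAPPC13, 1 of 10 did. That one, TRAPPC6B, had 1 summit in each list. High values outside the member list were those of VPS37A of ESCRT-I, with 14 and 8 summits and highest folds of 7.74 and 4.21, and of STAM of ESCRT-0, with 10 and 11 and highest folds of 5.97 and 7.67.

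Some member summits cannot be assigned to 1 gene, because the lists carry no strand. These were 4.73% of member summits in replicate 1 and 2.92% in replicate 2. On VPS52, 4 and 1 also lay in exons of HCG25, on COG1 3 and 1 in exons of FAM104A and other genes, and on COG5 1 in each list in an exon of HBP1. Both summits of VPS33A, 1 of 2 on COG8 and 1 of 2 on EXOC3 lay in exons of a further gene. With summits in exons of 1 gene alone, 25 members had a summit in both lists, EXOC7 being the one lost.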

How the data were processed

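Libraries were made by the authors from OE-19 RNA after lysis, and per the labels the cells were UV fixed. The processing notes name fastp, HISAT2, MACS2 and hg38, whereas the methods of the study name Tophat2 as the aligner and default settings for MACS2, and versions, the caller's p limit and the caller's control library are not given in the sources used here. Each RIP replicate had its own narrowPeak list. Deposited by the authors were a fold enrichment (a ratio), −log10 p and −log10 q values at the summit and a score. The score was not used here. The smallest −log10 p was 2.00 in both lists, and many peaks had a q above the limit that MACS2 sets by default. The lists hold no read counts, so depth is unknown and no counting interval was given.

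Summits were assigned to genes with an exon there in GENCODE 44, regardless of strand, and to the Ensembl canonical transcript for positions. All 24 chromosomes were found in the GRCh38 reference and 0 had a peak past its end. Peaks were shared at 1 bp of overlap. GC content and motifs were read from the transcript sequences. Samples were grouped by title. No test was run. In 5000 simulated summits, gene and position were recovered in 100%. Python 3.11.15, numpy 2.4.6, scipy 1.17.1 and matplotlib 3.10.9 were used.

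The members, lists and motifs were chosen with earlier results of these data known. Full values were given for the 8 members highest by count, density and fold, for those with a q of at most 0.05 in both lists, and for those without a peak in 1 or both. Alternatives were limits of q at 0.05 and fold at 5, any exon overlap, summits in 1 gene, merged exons, other overlap rules and windows, and leaving out each replicate. Other names and classes in the text, such as exon number, were chosen after values were seen.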

Additional observations from a re-analysis of the deposited data

Results flagged for a closer look

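Summits outside the exons were the only kind of signal that drew a closer look. In introns of member genes, replicate 1 had 6 summits and replicate 2 had 5. They lay in EXOC6, TRAPPC10, VPS8, EXOC2 and TRAPPC9 in replicate 1 and in COG3, EXOC5, EXOC2 and TRAPPC9 in replicate 2. Their folds ranged from 1.98 to 2.92, and a q of 1 was carried by all except one VPS8 peak of replicate 1 with q = 0.336. An overlapping peak in the other list was present for the TRAPPC9 site in both lists, with folds of 2.22 and 2.12, and for 1 VPS8 and 1 EXOC2 peak of replicate 1. For VPS8 and EXOC2, the overlapping replicate 2 peak had its summit in an exon, exon 35 of VPS8 and exon 10 of EXOC2. These 2 are therefore not sites with an intronic summit in both lists. Groups of 2 samples are too small for a check of single samples that stand apart.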

How the results depend on the processing

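With a q of at most 0.05, the members with a peak in both lists fell from 26 to 9, the mean count of member peaks to 30.5, the median density to 0 per kb and the overlapping share to 24.4%, while the median highest fold rose to 5.61. With a fold of at least 5 the same values were 6, 14, 0 per kb, 30.0% and 5.93, and 100% of the remaining peaks had a q of at most 0.05. These limits leave fewer peaks by construction. The CDS share was 86.9% at that q limit. The stop codon window share was 10.9% at that q limit, 13.4% at that fold limit, 3.67% with 100 nt on either side and 10.4% for overlapping peaks, and the 3′ UTR share was 2.17%, 0% and 4.59% for the q limit, the fold limit and overlapping peaks. Per kb of merged exons the median density was 0.746. The overlapping share was 43.9% when at least 50% of both peaks had to overlap and 48.6% for summits at most 50 nt apart. GGAC was present in 23.9% of windows of overlapping peaks, in 11.2% of windows of 25 nt on either side and in 44.04% with 100 nt. The other 32 of 57 values stayed within 1.5 times the reported count or 1 SD. Among them were the 20 with 1 replicate left out, which is so by construction with 2 replicates, such as 274 to 275 peaks, 2.02 to 2.74 per kb, 59.3% to 59.9% overlap and a CDS share of 83.4% to 86.1%. No paired analysis was possible because the input of each replicate was not analysed here, which left 1 group of 2 lists. Unknown depth, missing strand, a q of 1 on most member peaks, and the absence of expression values limit what the lists can show: a member without a peak may still be bound.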
